A study of Mus musculus with 58 samples.

Results

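The 10 genes described here carry iron into and out of cells, store it, build heme from it, break heme down or are known from red blood cells: Tfrc, Slc11a2, Slc40a1, Hamp, Fth1, Hmox1, Alas1, Alas2, Slc4a1 and Bpgm. Each was taken from the array probe sets annotated with that single gene symbol, averaged where a gene had several, which gave 10 of the 18820 genes measured. Slc4a1 and Bpgm were chosen by measured values, their levels in T+WBV against T hearts, so their heart values in trained against untrained mice are given as a description with no test. Fth1 had 2 probe sets and every other gene had 1.

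Gene expression was measured on 58 single-colour arrays of extensor digitorum longus (EDL, a fast hind limb muscle), soleus (SOL, a slow hind limb muscle) and heart (HRT) from male CD2F1 mice, a BALB/c x DBA/2 cross, 6 to 8 weeks old. Tumour-bearing mice had received C26 colon adenocarcinoma cells under the skin of the flank, and control mice a sham injection of buffer in the same place, both under anaesthesia. Whole-body vibration training (WBV) meant 15 min on a vibrating platform every day, at 45 Hz and 1.0 g. Section was on day 19, for trained mice at least a day after their last session. The groups were tumour-bearing and trained mice (T+WBV, 5 EDL, 5 SOL and 3 HRT arrays), tumour-bearing untrained mice (T, 6, 6 and 3), trained control mice (C+WBV, 6, 6 and 3) and untrained control mice (C, 6, 6 and 3). The tumour came from 1 cell line at 1 site, and all groups were read at 1 time point. EDL and SOL arrays carry the same replicate numbers for the same mice. The hearts came from some of these mice: heart T replicates 1 to 3 were muscle T replicates 4 to 6, and heart T+WBV replicates 1, 2 and 3 were muscle T+WBV replicates 1, 2 and 4.

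Cells take up iron bound to transferrin through the transferrin receptor, and a drop in receptor message is one of the usual responses of a cell whose iron supply is ample. Iron leaves cells through ferroportin, which the hormone hepcidin removes from the membrane, and iron kept in the cell is stored in ferritin. Striated muscle needs iron for the heme of myoglobin and the cytochromes, and the first step of heme synthesis is made by one enzyme in most cells and by another in developing red cells.

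All levels below are log2 intensities, on which 1 unit is a doubling, and differences are log2 differences with their standard error. A gene was called changed where limma's adjusted p, over all 18820 genes, was under 0.01. Levels of different genes come from different probes and are not set against each other. Array medians lay between 4.52 and 4.60. The tissue labels went with their marker genes: 10 heart muscle markers averaged 11.0 to 11.8 in hearts and 4.82 to 5.43 in EDL and SOL, and 8 fast muscle markers averaged 11.9 to 12.7 in EDL. The p-values measure the spread between mice of a group. In whole tissue, fewer cells of a type and less RNA per cell cannot be told apart.

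Promoter sequence was at hand in the RefSeq table (GRCm38.p6) for 6 of the 10 genes, as windows of 250 bases before to 50 bases after each start. The windows were searched on both strands for 5 short motifs. They were CATGCGC (one side of the site of the factor NRF1, found in 3.91% of all 32851 windows), TGACNNNGC (the core of the antioxidant response element, 12.4%), ACGTG (the core of the hypoxia response element, 19.6%), AGATAA (11.2%) and TTCNNNGAA (STAT factors, 8.3%). The fourth of these is the motif of the GATA family, which includes the main transcription factor of red cell precursors. Bpgm and Fth1 held none of the 5 in their windows.

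Tfrc and Alas1 are shown because they fell together in the muscles of tumour-bearing mice, and Hamp and Alas2 because they were the members far higher in heart than in skeletal muscle. Capitals mark the matches, each stretch runs in the direction of its gene, and positions count from 1 at the start. For Tfrc positions -100 to 10 are given (chr16:32608796-32608905, + strand), with ACGTG across the start at -2 to 3. For Alas1 positions 20 to 49 are given (chr9:106247906-106247935, - strand), with CATGCGC on both strands, at 30 to 36 and 33 to 39, overlapping. For Hamp (positions -150 to -1, chr7:30944030-30944179, - strand) the capitals mark the GATA motif, read on the other strand, at -128 to -123 and the STAT motif at -97 to -89. For Alas2 (positions -150 to -1, chrX:150547267-150547416, + strand) they mark the GATA motif, again on the other strand, at -86 to -81. Outside the stretches shown, Alas1 also held the STAT motif at -171 to -163. The second window of Alas1 held CATGCGC on both strands, at -195 to -189 and -192 to -186, and that of Tfrc held ACGTG at -228 to -224. Windows of 1 gene can overlap, and whether these are the same sites as in the first windows was not checked. A match is a run of letters in a window, and binding was not measured.
Tfrc: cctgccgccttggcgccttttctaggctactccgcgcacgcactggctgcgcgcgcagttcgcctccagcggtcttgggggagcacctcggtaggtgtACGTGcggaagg
Alas1: cgcacccaagGCGCATGCGCggcggtcact
Hamp: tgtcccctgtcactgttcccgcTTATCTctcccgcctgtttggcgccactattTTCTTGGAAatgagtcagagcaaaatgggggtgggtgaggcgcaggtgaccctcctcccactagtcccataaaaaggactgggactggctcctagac
Alas2: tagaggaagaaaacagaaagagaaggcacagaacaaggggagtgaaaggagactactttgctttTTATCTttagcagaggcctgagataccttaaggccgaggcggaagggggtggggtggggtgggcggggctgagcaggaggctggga

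In untrained tumour-bearing mice, against untrained controls, the transferrin receptor fell in all 3 tissues. The heme synthesis enzyme Alas1 and the mutase Bpgm fell in both skeletal muscles, and the heme-degrading enzyme Hmox1 rose in both. Among trained mice, Tfrc in HRT and Bpgm and Hmox1 in SOL were not called for the tumour. The 10 genes were chosen with earlier results of these data known, so their counts beside the shares of all genes are a description. In EDL, 6 of the 10 genes were called in T against C (Hmox1 and Hamp higher, Tfrc, Bpgm, Alas1 and Slc11a2 lower), where 22.4% of all genes were called. In SOL, 5 of 10 were called (Hmox1 higher, Tfrc, Alas1, Bpgm and Slc40a1 lower), where 13.7% of all genes were. In HRT, Tfrc alone of the 8 genes with a test was called, where 5.74% of all genes were, on 3 arrays a group. Slc4a1 and Bpgm were chosen by values that hold the T hearts and are left out of that count.

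**Figure D1:**
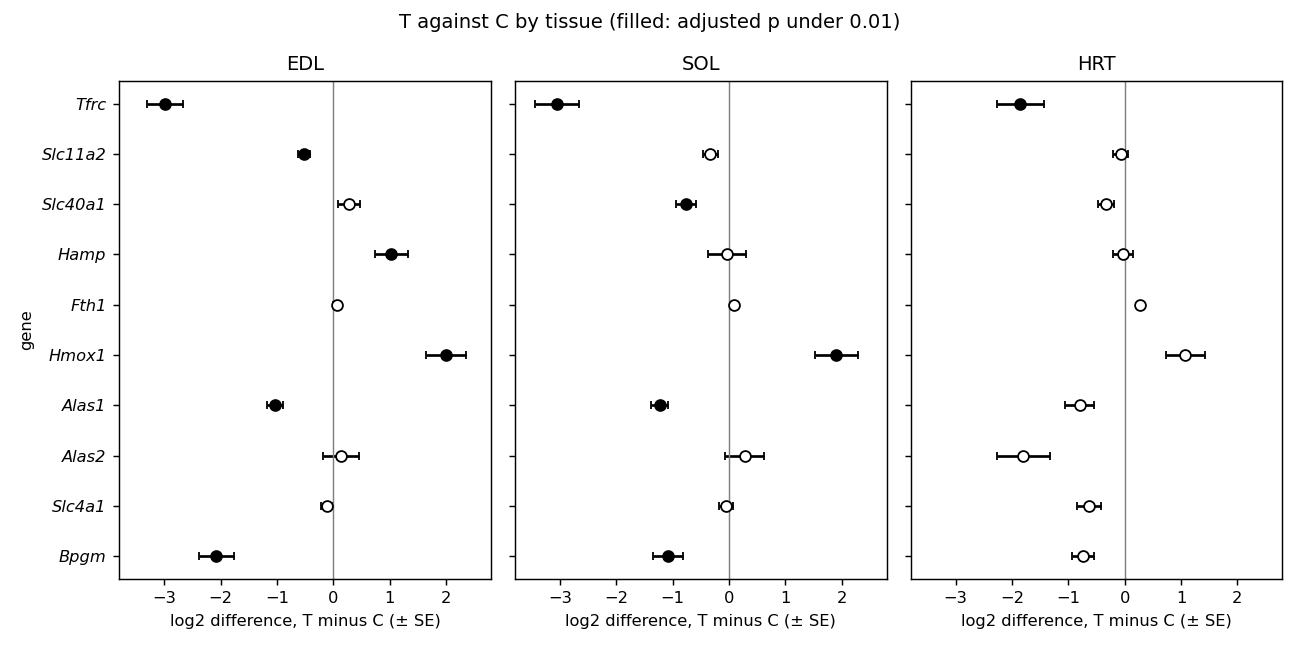
Log2 difference of T minus C with its standard error for the 10 genes in EDL (6 against 6 arrays), SOL (6 against 6) and HRT (3 against 3). The HRT points of Slc4a1 and Bpgm are a description with no test. Filled points passed an adjusted p of 0.01: Tfrc lies to the left in all 3 tissues, at -2.98 in EDL, -3.06 in SOL and -1.85 in HRT, and Hmox1 is filled to the right in EDL and SOL.

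Tfrc, on chromosome 16 (32608896 to 32632794, GRCm38.p6), encodes transferrin receptor 1, the main entry of transferrin iron. In EDL its level ran between 4.52 and 5.88 (median 5.55) in T mice, against 7.88 to 8.89 (median 8.23) in C mice. Every T muscle lay below every C muscle, with a difference of -2.98 ± 0.32, which is 0.127 times the C level (limma, adjusted p = 6.9e-07). Of the 18820 genes, 9 fell further in EDL.

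In SOL, Tfrc ran between 4.38 and 6.70 (median 5.73) in T mice, against 7.93 to 9.45 (median 8.77) in C mice, again with no overlap (-3.06 ± 0.39, adjusted p = 8.4e-06). Here 6 genes fell further. In HRT, Tfrc was 5.61, 6.04 and 6.14 in T mice, against 7.07, 8.39 and 7.89 in C mice. The hearts did not overlap either, and the difference of -1.85 ± 0.42 had an adjusted p of 0.0098, a call that was lost when any of 7 of the 12 heart arrays was left out (adjusted p up to 0.044), with 1 prior variance (0.021), after a second quantile normalization (0.011) and with the replicate block (0.017).

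Tfrc fell in trained tumour-bearing mice too, against trained controls, in both skeletal muscles. In EDL, Tfrc was 4.92, 7.36, 5.68, 4.68 and 6.34 in T+WBV mice, against 7.74 to 8.87 (median 8.38) in C+WBV mice (-2.52 ± 0.34, adjusted p = 2.3e-05). In SOL it was 5.99, 8.04, 5.30, 5.27 and 6.23 in T+WBV mice, against 7.92 to 9.12 (median 8.15) in C+WBV mice (-2.11 ± 0.41, adjusted p = 0.0023). That SOL call was lost with only the groups compared in the fit (adjusted p = 0.013) and without SOL T+WBV replicate 3 (0.013) or 4 (0.010). T+WBV replicate 2, at 7.36 in EDL and 8.04 in SOL, was the highest of the 11 tumour-bearing mice in both muscles and reached into the C+WBV range in SOL. In HRT the T+WBV values were 5.50, 6.83 and 5.31, against 8.21, 6.70 and 7.52 in C+WBV mice, and the difference of -1.60 ± 0.42 was not called (adjusted p = 0.037). Without heart T+WBV replicate 2, which is that same mouse, it was -2.07 with an adjusted p of 0.0013.

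**Figure D2:**
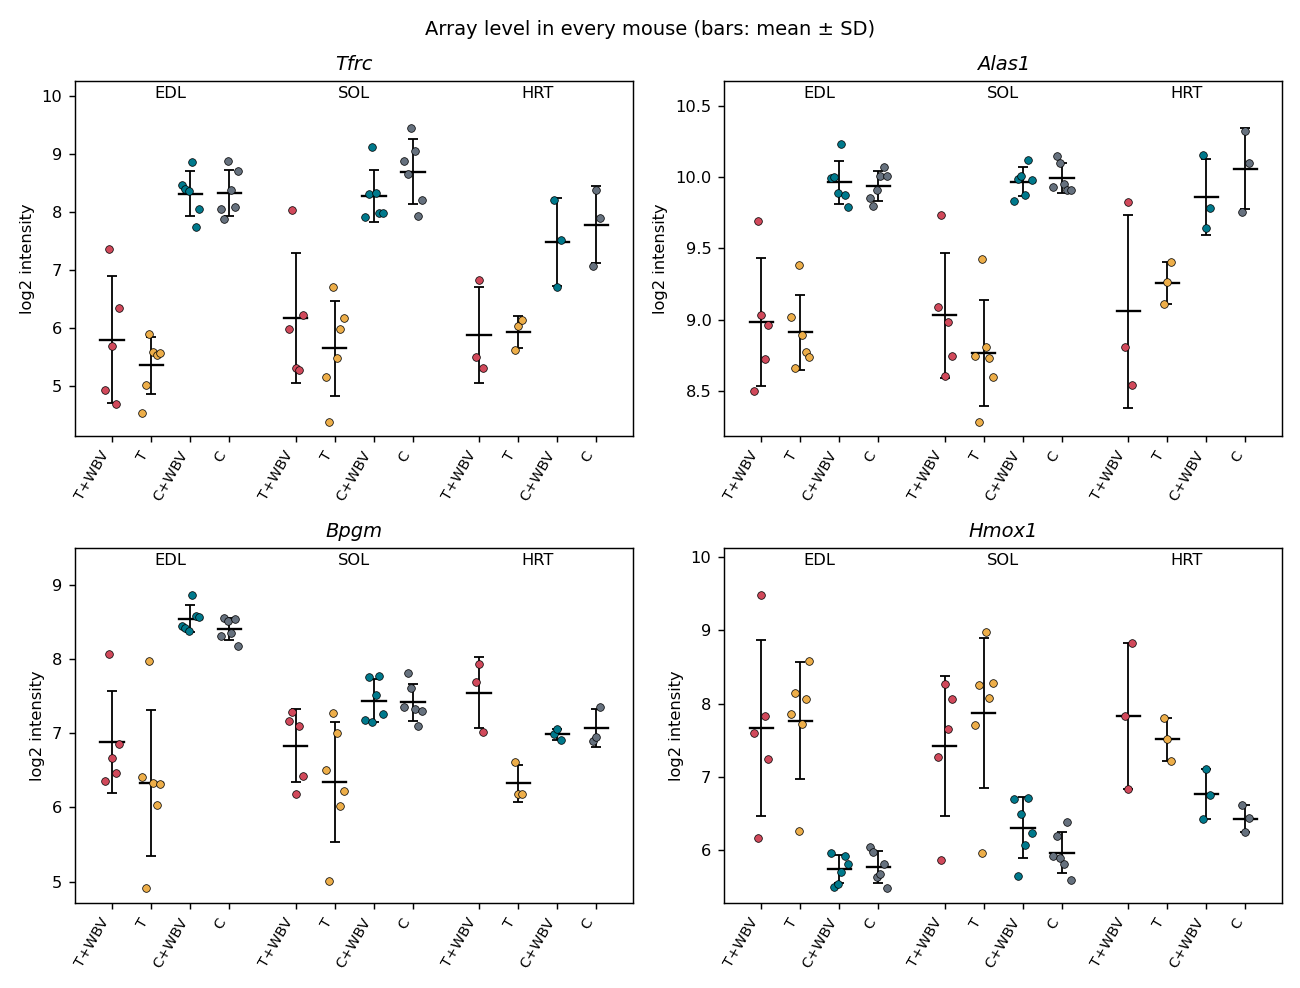
Log2 intensity of Tfrc, Alas1, Bpgm and Hmox1 in every mouse of the T+WBV, T, C+WBV and C groups in EDL, SOL and HRT; points are mice, lines are means and bars are SD. In EDL the 6 T mice lie between 4.52 and 5.88 for Tfrc, all below the C mice, while Hmox1 lies above them, and 1 T and 1 T+WBV mouse sit near the controls for Hmox1.

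Slc11a2 encodes DMT1, which moves iron across the membrane of the endosome after the receptor has been taken up. In EDL it ran between 5.89 and 6.30 (median 6.09) in T mice, against 6.46 to 6.71 (median 6.65) in C mice. The groups did not overlap, and the difference of -0.52 ± 0.11 was called (adjusted p = 0.00038). It also fell in EDL of T+WBV against C+WBV mice, by 0.56 ± 0.11 on the log2 scale (adjusted p = 0.00099). In SOL the difference of T against C was -0.33 ± 0.14 (adjusted p = 0.086) and in HRT -0.070 ± 0.13 (adjusted p = 0.81), neither called. The test of the T against C effect between tissues was not passed for Slc11a2 in SOL minus EDL (0.20 ± 0.15, adjusted p = 0.53) or HRT minus EDL (0.43 ± 0.19, adjusted p = 0.17).

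Slc40a1 encodes ferroportin, the one known iron exporter of mammalian cells. In SOL it ran between 5.04 and 6.11 (median 5.11) in T mice, against 5.85 to 6.46 (median 6.11) in C mice. T replicates 3 and 4, at 6.00 and 6.11, overlapped the controls, and the other T muscles lay below all of them (-0.76 ± 0.18, adjusted p = 0.0029, and 0.010 without SOL T replicate 5, which ended the call). In EDL it ran between 6.29 and 7.69 (median 7.47) in T mice, against 6.73 to 7.21 (median 7.01) in C mice, a difference of 0.28 ± 0.20 that was not called (adjusted p = 0.32).

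The difference between the tumour effects, SOL minus EDL, was itself called for Slc40a1 (-1.04 ± 0.24, adjusted p = 0.0051), the only member among the 380 genes (2.02%) called in that test. It passed in the fit with the mouse as a random block and was not called without that block (adjusted p = 0.015), after a second quantile normalization (0.010), or without the mouse of T replicate 1, 5 or 6 or of C replicate 1, 2, 3, 4 or 6 (up to 0.031). Among trained mice the SOL minus EDL difference was not fitted. In their SOL, Slc40a1 was 5.84, 6.19, 5.38, 6.00 and 5.83 in T+WBV mice, against 5.59 to 6.17 (median 6.05) in C+WBV mice, and was not called (-0.16 ± 0.19, adjusted p = 0.69). The tumour by training interaction in SOL was 0.60 ± 0.26 and was not called (adjusted p = 0.99). In HRT, Slc40a1 was 6.53, 6.22 and 6.08 in T mice, against 6.73, 6.47 and 6.62 in C mice (-0.33 ± 0.15, adjusted p = 0.17).

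Hamp encodes hepcidin, the hormone that closes ferroportin and is made mainly by the liver. It was a heart gene among these tissues: in C mice it was 7.65, 7.75 and 7.54 in HRT, against 2.48 to 3.76 (median 3.16) in EDL and 3.13 to 4.90 (median 3.58) in SOL. Heart exceeded EDL by 4.55 ± 0.37 (adjusted p = 2.3e-15) and SOL by 3.89 ± 0.37 (adjusted p = 7.6e-13), in the fit over all 58 arrays. The C level of Hamp was at or above that of 19.4% of genes in EDL and 33.2% in SOL, and with no detection call at hand it was not shown to be above background there, so both differences are read as lower bounds. No change of Hamp with the tumour was called in hearts, with 7.80, 7.77 and 7.28 in T mice, against the C values above (-0.030 ± 0.18, adjusted p = 0.95).

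In EDL, Hamp ran between 2.99 and 5.15 in T mice, against 2.48 to 3.76 (median 3.16) in C mice. The call in EDL (1.03 ± 0.30, adjusted p = 0.0085) rested on overlapping groups: T replicates 2, 5 and 6 lay above all C mice and the other T mice within the C range. It was lost when any of 13 of the 23 EDL arrays was left out, with adjusted p up to 0.031, with only T and C in the fit (0.023), and with the suffix in the array description as a covariate (0.013). Its close copy Hamp2 had the pattern most like that of Hamp over the 58 arrays, after subtraction of each tissue's mean (Pearson r = 0.66). Whether the Hamp and Hamp2 probe sets read each other's transcripts was not tested.

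Fth1 encodes the ferritin heavy chain, which oxidises and stores iron. It was called in no comparison of T against C. T mice ran between 8.69 and 9.06 in EDL, against 8.74 to 8.91 in C mice (0.067 ± 0.073, adjusted p = 0.56), and between 8.90 and 9.08 in SOL, against 8.81 to 8.94 in C mice (0.097 ± 0.063, adjusted p = 0.31). In HRT the 3 T values, 9.13, 9.16 and 9.20, lay above the 3 C values, 8.83, 8.97 and 8.84 (0.28 ± 0.067, adjusted p = 0.013), and this was not called. The heart difference was 0.49 ± 0.12 on the dimmer probe set and 0.072 ± 0.039 on the brighter one. The partner subunit Ftl1 rose in T against C in EDL (0.71 ± 0.12, adjusted p = 8.2e-05) and SOL (0.72 ± 0.14, adjusted p = 0.00064).

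**Figure D3:**
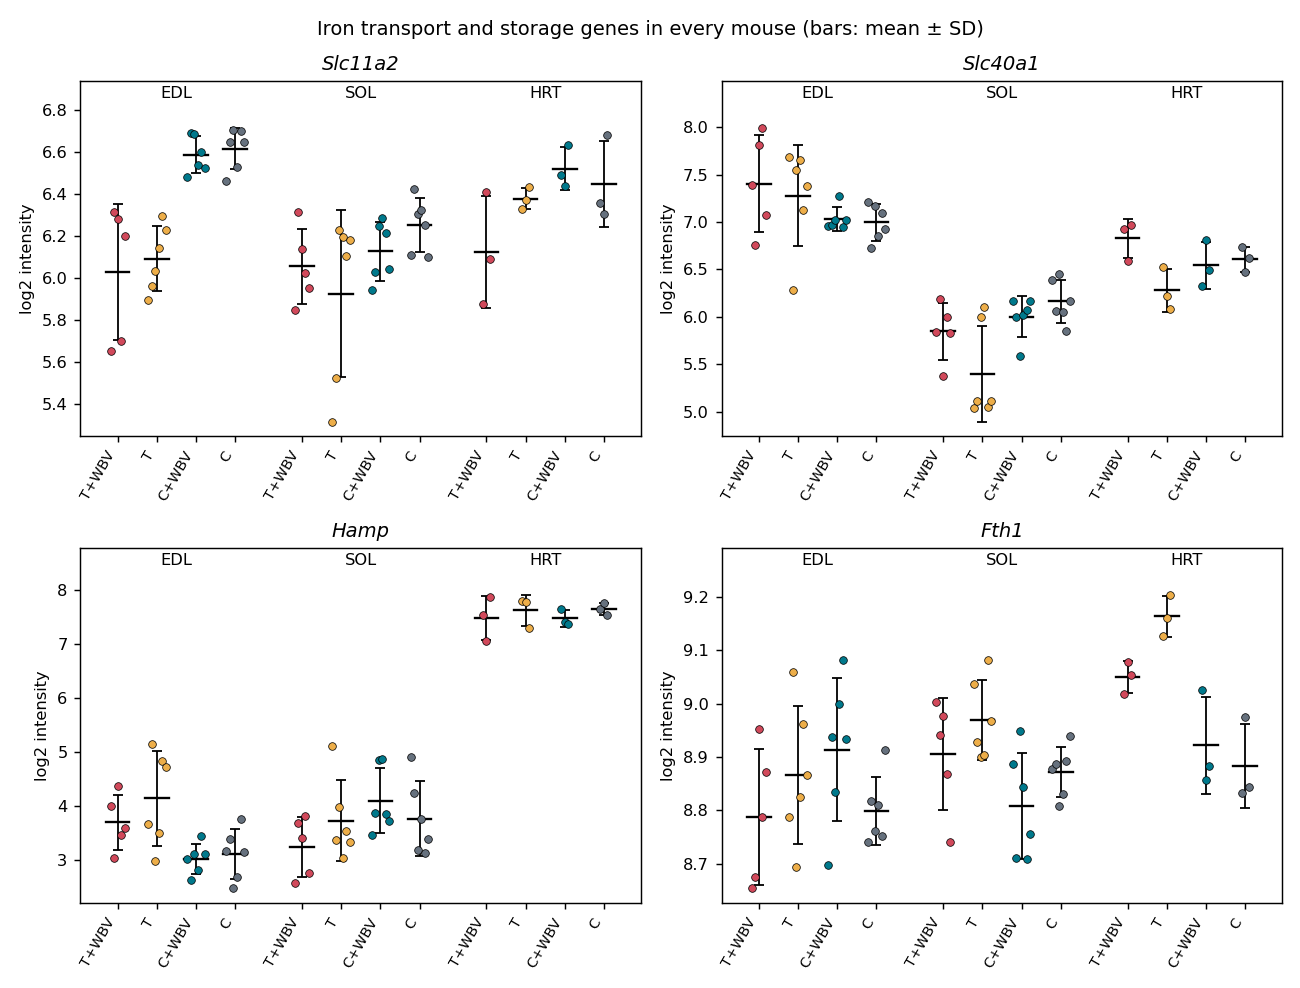
Log2 intensity of Slc11a2, Slc40a1, Hamp and Fth1 in every mouse by tissue and group; points are mice, lines are means and bars are SD. Hamp stands above 7 in all 12 hearts and at or below 5.15 in every skeletal muscle, and Slc40a1 is low in SOL of T mice, with a median of 5.11.

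Hmox1 encodes heme oxygenase 1, the inducible enzyme that opens the heme ring and frees its iron. In EDL it was 7.85, 8.14, 6.26, 7.71, 8.06 and 8.58 in T mice, against 5.48 to 6.05 (median 5.74) in C mice. All T muscles lay above all C muscles, and Hmox1 rose by 2.00 ± 0.36, which is 3.99 times the C level (adjusted p = 0.00012). In SOL it was 7.71, 8.25, 5.96, 8.97, 8.07 and 8.28 in T mice, against 5.59 to 6.38 (median 5.91) in C mice (1.91 ± 0.37, adjusted p = 0.00062). T replicate 3, at 6.26 in EDL and 5.96 in SOL, was the lowest T mouse in both muscles and lay among the controls in SOL. Of all genes, 50 rose further in EDL and 33 in SOL.

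In T+WBV mice Hmox1 was 7.60, 6.16, 9.48, 7.84 and 7.24 in EDL, against 5.50 to 5.96 (median 5.76) in C+WBV mice (1.93 ± 0.38, adjusted p = 0.00088). In SOL it was 7.26, 5.86, 8.26, 7.65 and 8.06 in T+WBV mice, against 5.64 to 6.71 (median 6.37) in C+WBV mice, and the difference of 1.11 ± 0.39 was not called (adjusted p = 0.078). Without SOL T+WBV replicate 2 it was 1.50 with an adjusted p of 0.0054. In HRT the T values of 7.80, 7.52 and 7.21 lay above the C values of 6.62, 6.24 and 6.43, by 1.08 ± 0.35 (adjusted p = 0.055), which was called with only the groups compared in the fit or without heart T+WBV replicate 2 or 3 (0.00056 at the lowest). T+WBV hearts stood at 7.83, 6.84 and 8.83, against 6.42, 7.11 and 6.76 in C+WBV hearts (1.07 ± 0.35, adjusted p = 0.087).

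Some markers of macrophages, neutrophils and platelets rose in T against C on the same arrays, on which 22.4%, 13.7% and 5.74% of all genes were called in EDL, SOL and HRT. Of 15 macrophage markers 5 rose in EDL, 1 in SOL and 8 in HRT in T against C, and none fell. Their mean level was 5.01 to 5.73 in T mice, against 4.74 to 5.15 in C mice in EDL, and 7.08 to 7.26 in T mice, against 6.27 to 6.80 in C mice in HRT. In SOL it was 5.29 to 5.95 in T mice, against 5.26 to 5.61 in C mice. Of 12 neutrophil markers 4 rose in EDL, 6 in SOL and 5 in HRT, and none fell, with mean levels in EDL of 3.52 to 4.29 in T mice, against 3.19 to 3.45 in C mice. Of 5 platelet and megakaryocyte markers 1 rose in EDL, 2 in SOL and 2 in HRT, and none fell. Their mean level was 4.64 to 4.90 in T mice, against 4.05 to 4.53 in C mice in EDL, 4.76 to 5.21 against 4.30 to 4.54 in SOL, and 6.77 to 7.08 against 5.86 to 6.11 in HRT. The SOL count of macrophage markers was below the share of all genes called, and the EDL count of platelet markers was near it. The part of the macrophage, neutrophil and platelet markers in the changes of Hmox1, Slc40a1 and Hamp was not tested.

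Alas1 encodes the first enzyme of heme synthesis outside the red cell line. In EDL it ran between 8.66 and 9.38 (median 8.83) in T mice, against 9.79 to 10.1 (median 9.96) in C mice (-1.03 ± 0.14, adjusted p = 7.8e-06). In SOL it ran between 8.28 and 9.42 (median 8.74) in T mice, against 9.91 to 10.1 (median 9.94) in C mice (-1.23 ± 0.15, adjusted p = 6.0e-06). The groups overlapped in neither muscle, and the T level was 0.489 and 0.426 times the C level in EDL and SOL.

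With training the fall of Alas1 was called as well. T+WBV mice stood at 8.50, 9.69, 9.04, 8.72 and 8.96 in EDL, against 9.79 to 10.2 (median 9.94) in C+WBV mice (-0.98 ± 0.15, adjusted p = 9.1e-05). In SOL they stood at 9.09, 9.74, 8.60, 8.98 and 8.74, against 9.84 to 10.1 (median 9.98) in C+WBV mice (-0.94 ± 0.16, adjusted p = 0.00081). The trained groups did not overlap either, and T+WBV replicate 2 was the nearest to the controls in both muscles. In HRT the T values of 9.11, 9.27 and 9.40 lay below the C values of 9.76, 10.3 and 10.1, by a difference that was not called (-0.80 ± 0.25, adjusted p = 0.048).

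Alas1 and Tfrc shared their pattern closely. Over the 58 arrays, with each tissue's mean subtracted, Tmx2 (r = 0.96), Alas1 (r = 0.94) and Trp53inp2 (r = 0.94) were the genes most like Tfrc. Mrpl45 (r = 0.95), Coa5 (r = 0.95) and Rtn4ip1 (r = 0.95), a mitochondrial ribosomal protein, an assembly factor of cytochrome oxidase and a mitochondrial oxidoreductase, were most like Alas1. Hmox1 was most like Gclm (r = 0.93), which makes a subunit of the first enzyme of glutathione synthesis, Fbxo31 (r = 0.92) and Sqstm1 (r = 0.92). These correlations describe 58 arrays that share groups and mice, and genes are not independent replicates.

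Alas2 encodes the heme synthesis enzyme of red cell precursors, and like Hamp it was higher in heart. In C mice it was 8.98, 8.55 and 9.58 in HRT, against 4.90 to 5.84 (median 5.26) in EDL and 5.05 to 5.51 (median 5.43) in SOL. Heart exceeded EDL by 3.73 ± 0.39 (adjusted p = 1.3e-11) and SOL by 3.72 ± 0.39 (adjusted p = 1.9e-11). The adult globin probe sets, 4 in number and each shared by several globin genes, averaged 12.8 to 13.1 in C hearts, against 10.2 to 11.0 in C EDL and 10.2 to 11.1 in C SOL. Globins, the protein chains of hemoglobin, mark red cells in the tissue, and their part in the tissue difference of Alas2 was not tested.

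No change of Alas2 was called in T against C in EDL (0.14 ± 0.32, adjusted p = 0.80) or SOL (0.28 ± 0.35, adjusted p = 0.66), yet the T mice were spread far more widely. In EDL they stood at 6.47, 4.57, 6.26, 6.13, 5.28 and 4.14 (SD 0.968, n = 6), against an SD of 0.317 in C mice (n = 6). In SOL the same mice in the same order stood at 6.92, 4.09, 6.02, 6.76, 5.58 and 4.35 (SD 1.19), against an SD of 0.207 in C mice. T replicates 2 and 6 were the low mice in both muscles and T replicate 1 the highest in both. Their globin averages ran alongside: 8.68 and 7.86 in EDL of T replicates 2 and 6, where the other T mice had 10.3 to 11.4, and 8.95 and 8.45 in SOL, where the others had 11.1 to 11.6.

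**Figure D4:**
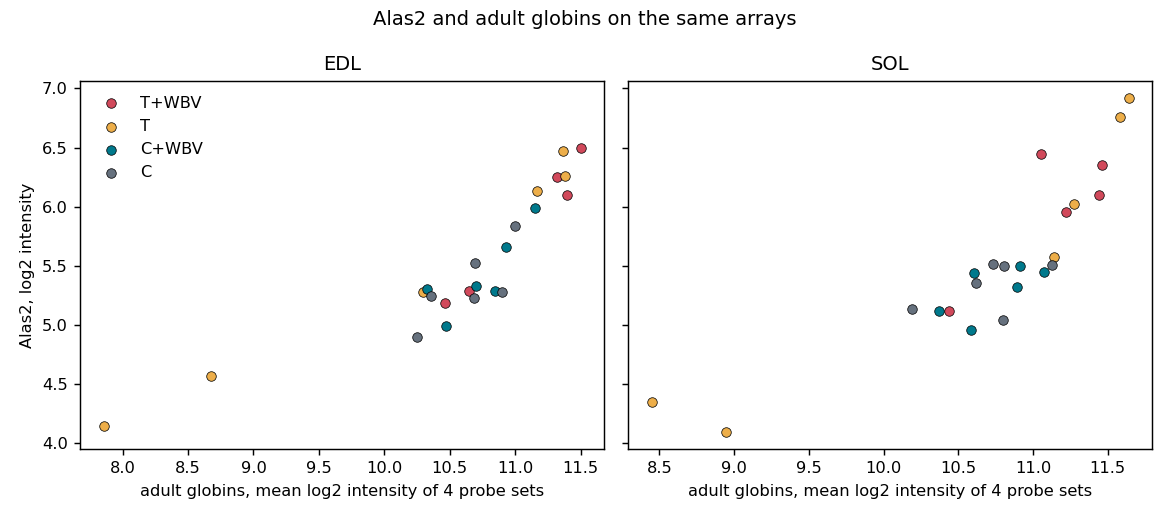
Alas2 log2 intensity against the mean log2 intensity of 4 adult globin probe sets on the same EDL and SOL arrays, by group. In both muscles 2 T mice (replicates 2 and 6) lie at the lower left, below 9 for globins, and the remaining arrays lie above 10.

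In hearts of T mice Alas2 was 8.35, 7.54 and 5.83, against 8.98, 8.55 and 9.58 in C mice. All T hearts lay below all C hearts, and the difference of -1.80 ± 0.47 was not called (adjusted p = 0.020). The lowest, T replicate 3, came from the mouse that was T replicate 6 in muscle. Without heart T replicate 1 the adjusted p was 0.0048. The globin averages of the T hearts were 12.5, 12.2 and 11.0, in the same order, against 12.8 to 13.1 in C hearts, and their part in the Alas2 difference was not tested.

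T+WBV hearts stood highest for Alas2 on average, at 9.83, 10.3 and 9.21, against 8.35, 7.54 and 5.83 in T hearts. Heart C replicate 3, at 9.58, lay above the lowest T+WBV heart. T+WBV and T hearts did not overlap, with a difference of 2.54 ± 0.47 and an adjusted p of 0.13, in a comparison where no gene of the 18820 (0%) was called by limma and 1407 genes had an unadjusted p under 0.05. T+WBV hearts were also above the C+WBV hearts, at 8.90, 8.64 and 9.12, by 0.89 ± 0.47 (adjusted p = 0.31). The tumour by training interaction of Alas2 in heart was 2.69 ± 0.66 and was not called (adjusted p = 0.74). The T+WBV hearts came from mice at 87.8%, 100.9% and 82.2% of their starting body mass, the T hearts from mice at 79.8%, 82.6% and 77.5%. The part of body mass in the heart levels of Alas2, Slc4a1 and Bpgm was not tested.

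Slc4a1 encodes band 3, the anion exchanger and anchor protein of the red cell membrane. In hearts it was 6.21, 5.97 and 5.53 in T+WBV mice, against 4.76, 4.27 and 4.47 in T mice. The difference was 1.40 ± 0.21, with no overlap, and it is the pattern for which the gene was taken. C+WBV hearts stood at 5.34, 4.75 and 5.04, against 4.97, 4.94 and 5.50 in C hearts, a difference of -0.088 ± 0.21. T+WBV hearts minus C+WBV hearts gave 0.86 ± 0.21 and T hearts minus C hearts -0.63 ± 0.21, both on arrays by which the gene was chosen and so given with no test. In the skeletal muscles Slc4a1 was near 4, between 3.81 and 4.70 on all 46 arrays, and was called in no comparison of groups within a tissue.

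Bpgm encodes bisphosphoglycerate mutase, which makes the small phosphate that loosens the hold of hemoglobin on oxygen. In hearts it was 7.69, 7.93 and 7.01 in T+WBV mice, against 6.62, 6.18 and 6.18 in T mice, a difference of 1.22 ± 0.20 with no overlap, likewise the pattern behind its choice. C+WBV hearts stood at 6.99, 7.06 and 6.92, against 6.89, 6.95 and 7.36 in C hearts (-0.078 ± 0.20). T hearts lay below C hearts by a difference of -0.74 ± 0.20, given with no test, since the T hearts are among the values by which the gene was chosen.

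**Figure D5:**
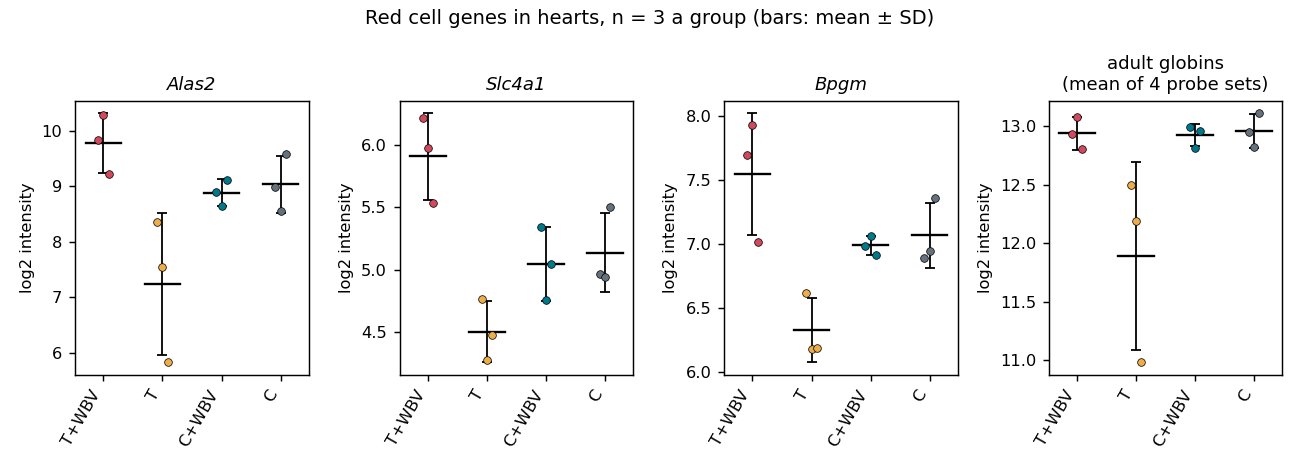
Log2 intensity of Alas2, Slc4a1, Bpgm and the mean of 4 adult globin probe sets in hearts of the T+WBV, T, C+WBV and C groups, 3 mice each; points are mice, lines are means and bars are SD. The T hearts are lowest on average in each panel, with Alas2 down to 5.83, and the T+WBV hearts are highest for Alas2, Slc4a1 and Bpgm on average.

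Bpgm fell in both skeletal muscles of T mice. In EDL it was 6.41, 4.91, 7.98, 6.33, 6.03 and 6.32 in T mice, against 8.17 to 8.55 (median 8.43) in C mice. No T muscle reached the C range, and Bpgm fell by 2.08 ± 0.31 on the log2 scale (adjusted p = 1.9e-05), with 46 genes falling further. In SOL it was 6.51, 5.00, 7.27, 7.01, 6.02 and 6.22 in T mice, against 7.10 to 7.81 (median 7.34) in C mice, with overlap (-1.08 ± 0.26, adjusted p = 0.0041). The SOL call was lost when SOL C replicate 2, SOL C replicate 3 or SOL T replicate 5 was left out (adjusted p up to 0.012), and with the replicate block (0.010).

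T+WBV mice had a Bpgm of 6.35, 8.07, 6.66, 6.47 and 6.86 in EDL, against 8.38 to 8.87 (median 8.51) in C+WBV mice (-1.67 ± 0.33, adjusted p = 0.00088). In SOL the difference of T+WBV against C+WBV was -0.61 ± 0.28 (adjusted p = 0.19). Its pattern over the 58 arrays was most like that of Pgm1 (r = 0.95), an enzyme that links glycogen to glycolysis. In C mice Bpgm was lower in SOL than in EDL (-0.99 ± 0.26, adjusted p = 0.0028) and lower in HRT than in EDL (-1.37 ± 0.32, adjusted p = 0.00036). The T against C effect in SOL minus EDL was 1.00 ± 0.36 and was not called (adjusted p = 0.093).

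No member was called for training. In T+WBV against T, 0 of the 10 genes in EDL and SOL and 0 of the 8 tested in HRT were called, and 0% of all genes in each tissue; 902 genes in EDL and 939 in SOL had an unadjusted p under 0.05. In C+WBV against C it was 0 of 10, 0 of 10 and 0 of 8, with 0% of all genes called and 627, 598 and 625 genes under 0.05 unadjusted in EDL, SOL and HRT. Tfrc differed by 0.45 ± 0.34 (EDL), 0.52 ± 0.41 (SOL) and -0.049 ± 0.42 (HRT) between T+WBV and T mice. In T+WBV against C+WBV, 5 of 10 genes were called in EDL (11.9% of all genes), 2 of 10 in SOL (3.61%) and 0 of 8 in HRT (1.49%). Set against untrained controls (T+WBV against C), 5 of 10 were called in EDL (11.1%), 2 of 10 in SOL (4.67%) and 0 of 8 in HRT (1.47%). Slc4a1 and Bpgm, chosen by values that hold the T+WBV hearts, are left out of both HRT counts.

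Between tissues of C mice, 4 of 10 genes were called in HRT against EDL (Hamp, Alas2 and Slc4a1 higher, Bpgm lower, where 31.9% of all genes were called) and 3 in HRT against SOL (Hamp, Alas2 and Slc4a1 higher, 25%). Slc4a1 was higher in HRT than in EDL by 0.90 ± 0.14 (adjusted p = 7.3e-07) and than in SOL by 1.05 ± 0.14 (adjusted p = 2.8e-08). In SOL against EDL, 3 of 10 were called (13.9% of all genes), each lower in SOL: Bpgm, Slc40a1 (-0.83 ± 0.17, adjusted p = 0.00016) and Slc11a2 (-0.36 ± 0.11, adjusted p = 0.0092). The Slc11a2 call was lost without the mouse block (adjusted p = 0.024) and without any of 15 of the 23 mice, all C mice among them (up to 0.045), and the Bpgm call without the mouse of C replicate 4 (0.010) or 5 (0.019). Slc4a1 and Bpgm have no test in the T against C effect between HRT and another tissue. The effect was called for 0 of the other 8 genes in HRT minus EDL (3.5% of all genes) and HRT minus SOL (1.68%). For Alas2 it was -1.92 ± 0.56 (adjusted p = 0.022) in HRT minus EDL and -2.06 ± 0.56 (adjusted p = 0.021) in HRT minus SOL.

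Among the 11 tumour-bearing mice, 1 of the 10 genes in EDL and 2 in SOL had a called slope on body mass at day 19, given as a percentage of the mass at the start. The 2 mice with the highest percentages were T+WBV replicate 2 at 100.9% and T replicate 3 at 91.0%, the same mice whose Hmox1 lay near the controls. Per percentage point of body mass, with T and T+WBV as separate groups, Hmox1 fell by 0.12 ± 0.017 in EDL (adjusted p = 0.0022, where 1.17% of all genes were called) and by 0.12 ± 0.018 in SOL (adjusted p = 0.0062, where 0.335% were). Alas1 rose by 0.051 ± 0.0077 per point in SOL (adjusted p = 0.0060), and for Tfrc the SOL slope was 0.11 ± 0.021 (adjusted p = 0.015), not called. No slope of any gene was called in either muscle when the 2 mice whose body mass lay farthest from the median were left out. Leaving out T+WBV replicate 2 alone gave an adjusted p of 0.022 for Hmox1 in EDL, 0.13 for Hmox1 in SOL and 0.15 for Alas1 in SOL, and leaving out T replicate 3 alone gave 0.020, 0.041 and 0.060. Both SOL calls were also lost without T replicate 6, T+WBV replicate 1 or T+WBV replicate 3 (adjusted p up to 0.024) and with 1 prior variance (0.010 for Hmox1 and 0.011 for Alas1).

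The wider pathways were described by lists of genes that hold the members or stand beside them. These lists too were chosen with earlier results of these data known, and their counts are a description. Of 15 measured genes of iron uptake and transport, 4 rose and 5 fell in EDL in T against C (median difference 0.0019, against -0.027 over all genes), 3 rose and 3 fell in SOL (0.0030, against -0.0076), and 4 rose and 1 fell in HRT (0.17, against 0.0043). For these lists the shares of all genes called were 22.4%, 13.7% and 5.74% in EDL, SOL and HRT. Lcn2, a protein that binds bacterial iron carriers and is made in inflammation, rose by 5.49 ± 0.62 in EDL (adjusted p = 1.2e-06) and by 4.95 ± 0.64 in HRT (adjusted p = 0.00045). Slc39a14, a carrier of zinc and of iron not bound to transferrin, rose by 3.26 ± 0.48 in EDL (adjusted p = 1.7e-05), 3.04 ± 0.37 in SOL (adjusted p = 4.6e-06) and 1.07 ± 0.16 in HRT (adjusted p = 0.00097). Steap3, which reduces iron in the endosome, fell by 0.96 ± 0.15 on the log2 scale in EDL (adjusted p = 3.0e-05).

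Of 22 genes of iron export and hepcidin control, 5 rose and 4 fell in EDL, 4 rose and 5 fell in SOL and 5 rose and 2 fell in HRT, with medians of 0.021, -0.015 and 0.092, against -0.027, -0.0076 and 0.0043 over all genes, of which 22.4%, 13.7% and 5.74% were called. Hjv, hemojuvelin, a coreceptor that raises hepcidin, fell by 1.17 ± 0.17 on the log2 scale in EDL (adjusted p = 1.5e-05) and 0.92 ± 0.14 in HRT (adjusted p = 0.0011). The transcription factor Atoh8 rose in EDL by 1.77 ± 0.20 (adjusted p = 1.0e-06), and Cp, ceruloplasmin, which oxidises the iron that ferroportin releases, rose by 0.84 ± 0.15 in SOL (adjusted p = 0.00022). Of 9 genes of iron storage and sensing, 1 rose and 2 fell in each skeletal muscle, where 22.4% (EDL) and 13.7% (SOL) of all genes were called, and 0 were called in HRT. The medians were -0.098, 0.029 and 0.076. Those that fell were Aco1, an iron regulatory protein (-0.35 ± 0.097 in EDL, adjusted p = 0.0069), and Ncoa4, which takes ferritin to the lysosome (-0.32 ± 0.090 in EDL, adjusted p = 0.0077).

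Of 13 heme synthesis genes, 2 rose and 6 fell in EDL, 0 rose and 4 fell in SOL, and 0 rose and 2 fell in HRT, where 22.4%, 13.7% and 5.74% of all genes were called. The list's median difference was -0.35, -0.27 and -0.36 in EDL, SOL and HRT, against -0.027, -0.0076 and 0.0043 over all genes. Alad, the enzyme of the second step, fell in all 3 tissues, by 0.56 ± 0.11 in EDL, 0.71 ± 0.16 in SOL and 0.53 ± 0.096 in HRT on the log2 scale (adjusted p = 0.00041, 0.0020 and 0.0028). Fech, which sets iron into the ring, fell by 0.37 ± 0.095 in SOL (adjusted p = 0.0059). Slc25a38, the mitochondrial glycine carrier, went the other way in EDL (0.81 ± 0.12, adjusted p = 2.3e-05).

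Of 16 iron-sulphur cluster assembly genes, 0 rose in any tissue and 5 fell in EDL, 3 in SOL and 1 in HRT, with medians of -0.17, -0.19 and -0.17, against -0.027, -0.0076 and 0.0043 over all genes. The called shares of all genes were 22.4%, 13.7% and 5.74%, and the counts in SOL and HRT are near them. Glrx5 (-0.70 ± 0.11, adjusted p = 2.4e-05), Bola3 (-0.61 ± 0.11, adjusted p = 9.0e-05) and Isca1 (-0.61 ± 0.093, adjusted p = 2.3e-05) were the largest falls in EDL. Of 14 genes of heme transport and breakdown, 5 rose and 1 fell in EDL, 3 rose and 0 fell in SOL, and 2 rose and 2 fell in HRT (medians 0.12, 0.087 and 0.14), where the same shares of all genes apply. Hp, haptoglobin, which binds free hemoglobin, rose in EDL (1.62 ± 0.23, adjusted p = 1.3e-05) and SOL (2.19 ± 0.49, adjusted p = 0.0018). Cd163, the hemoglobin scavenger receptor and also a macrophage marker, rose in EDL (1.07 ± 0.17, adjusted p = 4.0e-05) and HRT (2.13 ± 0.26, adjusted p = 0.00039).

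Of 10 targets of the oxidative stress factor NRF2 outside iron metabolism, 7 rose in EDL, 2 in SOL and 2 in HRT, and 0 fell, where 22.4%, 13.7% and 5.74% of all genes were called. The part of NRF2 in the change of Hmox1 was not tested. The medians of the targets were 0.63, 0.22 and 0.062, against -0.027, -0.0076 and 0.0043 over all genes. Gclm rose in EDL (1.87 ± 0.29, adjusted p = 2.3e-05), SOL (1.57 ± 0.24, adjusted p = 5.3e-05) and HRT (0.86 ± 0.18, adjusted p = 0.0074).

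Of 37 erythroid genes, 4 rose and 6 fell in EDL, 1 rose and 4 fell in SOL and 0 were called in HRT in T against C. These counts are near the shares of all genes called in EDL (22.4%) and SOL (13.7%), and the medians were -0.044, -0.047 and -0.038. Ank1, whose product ties the membrane to the cytoskeleton in red cells and also in muscle, fell by 1.62 ± 0.23 in EDL (adjusted p = 1.1e-05) and 0.96 ± 0.13 in SOL (adjusted p = 1.7e-05) on the log2 scale. In hearts the mean of 10 measured erythroid markers, Alas2 and Slc4a1 among them, was 4.13 to 4.42 in T+WBV mice and 3.61 to 3.89 in T mice, against 4.02 to 4.09 in C+WBV mice and 4.00 to 4.04 in C mice. Without these 2 members the mean of the other 8 was 3.32 to 3.50 in T+WBV mice and 3.22 to 3.32 in T mice, against 3.25 to 3.35 in C+WBV mice and 3.17 to 3.32 in C mice. Most of the gap in the mean of 10 between T+WBV and T hearts thus lay in Alas2 and in Slc4a1, which was chosen for it. Several of the 8 were dim in T hearts (means of 2.21 for Rhag, 2.59 for Kel, 2.78 for Klf1 and 2.83 for Hemgn). With no detection call at hand, their mean may miss a gap. The adult globins, not among the 10, averaged 12.8 to 13.1 in T+WBV hearts and 11.0 to 12.5 in T hearts. They averaged 12.8 to 13.0 in C+WBV hearts and 12.8 to 13.1 in C hearts.

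Within the 12 hearts, the genes most like Alas2 were Tent5c (r = 0.98), Ube2l6 (r = 0.97) and Isg20 (r = 0.95), followed by Fech (r = 0.95) and Rsad2 (r = 0.94). Slc4a1 was most like Slc25a37 (r = 0.95), which carries iron into the mitochondria of red cell precursors, and Bpgm most like Isg20 (r = 0.96) and Rsad2 (r = 0.96). Rsad2 averaged 7.72 ± 0.48 in T+WBV hearts and 5.66 ± 0.56 in T hearts (SD, n = 3 each), Ube2l6 8.46 ± 0.71 and 6.44 ± 0.58, and Slc25a37 7.55 ± 0.52 and 6.18 ± 0.28. These genes were picked for their likeness to members over the same 12 hearts, so their levels and correlations are a description and carry no test.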

How the data were processed

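Total RNA of EDL, SOL and HRT was labelled and hybridised to Affymetrix Mouse Gene 1.1 ST arrays. Per the labels and methods, the authors normalised the arrays with robust multi-array analysis (RMA, version not given in the sources used here), and the deposited values are log2 intensities per transcript cluster. Of 35556 probe sets, 21218 had 1 gene symbol in the platform annotation; their mean per symbol gave 18820 genes, and the 1881 with several symbols were left out except for the globins. Each tissue was fitted with limma 3.58.1 (R 4.3.3; lmFit and eBayes with trend) over its 4 groups, with Benjamini-Hochberg adjustment over all genes. Tissues were compared in 1 fit of 58 arrays with the mouse as a random block (duplicateCorrelation, 0.137). Slopes on body mass used the tumour-bearing mice with group as a term. The scripts were tested on simulated data. The members and gene lists were chosen with earlier results of these data known. Named genes were all members and, from each list, up to 3 for each tissue with the largest change among those called in T against C. Likeness was Pearson r. The number of arrays limits the precision. Alternatives were another variance prior, an intensity-based prior, other sets of arrays, a second quantile normalization, a filter on dim genes, single probe sets, a replicate block, the suffix in the array description, and each array left out.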

Additional observations from a re-analysis of the deposited data

Results flagged for a closer look

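Among 80 groups of 5 or 6 arrays (10 genes, both skeletal muscles, 4 treatment groups), 5 had an end value far from the rest by Dixon's test at 95%, which chance gives in about 1 of 20 groups. Tfrc in SOL of C+WBV replicate 3 was the highest of its group at 9.12, next to 8.33. Slc40a1 in EDL of C+WBV replicate 4 was the highest at 7.28, next to 7.03, and in SOL of C+WBV replicate 3 the lowest at 5.59, next to 6.00. Hmox1 in EDL of T replicate 3 was the lowest at 6.26, next to 7.71. Slc4a1 in SOL of T replicate 1 was the highest at 4.37, next to 4.05. The tumour effect on Slc40a1 differed between muscles, SOL minus EDL -1.04, by the test of the difference in the fit over all arrays.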

How the results depend on the processing

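Of 40 changes of single genes called, 31 kept their direction and call under every alternative that could be fitted, and 29 also with any 1 array or mouse left out. The count of members called in T+WBV against C+WBV in SOL was 1 with only the groups compared in the fit. In T against C in HRT it was 0 with 1 prior variance, 4 with only the groups compared, 2 with dim genes filtered out and 0 with the replicate block. The 4 include Bpgm, which was chosen by values that hold the T hearts, so its call there is no test. With all 58 arrays in 1 fit the count was 1 in T+WBV against C+WBV in HRT, which was Slc4a1. In T+WBV against C in HRT it was 2, Alas1 and Slc4a1. Slc4a1 was chosen by the T+WBV hearts, so its calls there are no test. For the tumour effect SOL minus EDL the count of members was 0 without the mouse block and 0 after a second quantile normalization. The filter on dim genes, which removes members with low levels, gave 2 in HRT against EDL in C, 1 in HRT against SOL in C, and 1 each in the tumour effects HRT minus EDL and HRT minus SOL. The slope counts were 0 in EDL and 0 in SOL with the 2 mice of most extreme body mass left out, and 0 in SOL with 1 prior variance. Fth1 in HRT against SOL in C, 0.015 and not called, became -0.014 after the second quantile normalization and -0.045 without the mouse of EDL C replicate 3. With single probe sets its brighter probe set was called there, at 0.13 (limma, adjusted p = 0.0025). In HRT against EDL in C the brighter probe set was called too, at 0.19 (adjusted p = 1.7e-05), where the mean of both was not (0.088). The causes were not tested.

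With each array or mouse left out, the counts were 5 to 6 (EDL), 3 to 5 (SOL) and 0 to 5 (HRT) in T against C, and 5 to 5, 1 to 3 and 0 to 4 in T+WBV against C+WBV. They were 5 to 5, 2 to 3 and 0 to 3 in T+WBV against C, 1 to 3 in SOL against EDL, 4 to 4 in HRT against EDL and 3 to 3 in HRT against SOL. They were 0 to 1 for each tumour effect between tissues, 0 to 1 for the EDL slope and 0 to 3 for the SOL slope. Leaving out heart T+WBV replicate 2 gave the highest count in each heart comparison with the tumour. In T against C that heart count includes Bpgm, which has no test there. The replicate numbers did not pair the mice of different groups (median correlation of deviations 0.0087 in EDL, 0.028 in SOL and -0.0024 in HRT). With the replicate block, 6, 4 and 0 members were called in T against C in EDL, SOL and HRT. The suffix in the array description could not be fitted in HRT, where no array carries it.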
